A study of Homo sapiens with 16 samples.

Results

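Proximal tubule-like cells were picked out of kidney organoids by their transcripts. The members were selected on measured values alone: a cell entered when its unique molecular identifiers (UMIs, each standing for 1 captured RNA molecule) for AMN, HPN, PDZK1, CUBN and FXYD2 added up to at least 3 and to at least 8 per 10000 of all its UMIs, and when it held fewer than 3 UMIs of the podocyte genes PTPRO and NPHS1. This gave 1645 members of 35066 cells with over 500 detected genes. The vehicle control (VC) library held 746 members among 11906 cells, or 6.27% (exact 95% binomial interval 5.84 to 6.72), and the TNFα library held 899 among 23160, or 3.88% (3.64 to 4.14). These and all further intervals on UMIs and cells cover counting error only.

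The organoids were grown from UM77-2, a human embryonic stem cell line, and the study asked how they change with time in culture and with tumor necrosis factor α (TNFα). For the single-cell libraries, whole wells were kept for 24 h with vehicle or with 5 ng/ml TNFα and dissociated on day 24, so cells outside the kidney lineages are included. There was 1 library per condition, and no difference between the VC and TNFα libraries can be tested on them. Bulk RNA came from isolated spheroids: 4 libraries labelled day 25 (VC and TNFα at 5 ng/ml for 24 h and 48 h, 1 library each) and 6 untreated libraries, 2 each from days 21, 25 and 29 (D21, D25, D29). All samples share 1 cell line, and nothing in the labels says that libraries of 1 group came from separate differentiations, so that spread between them may be technical.

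The proximal tubule is the stretch of the nephron right after the glomerulus. Its cells carry a brush border of microvilli, take filtered protein up through the receptors megalin (LRP2) and cubilin (CUBN, held at the membrane by amnionless, AMN), and move phosphate, sugars and amino acids out of the filtrate through solute carriers. The nuclear receptor HNF4A is known to drive much of this program. TNFα acts through TNFRSF1A and TNFRSF1B and switches on NF-κB, a family of transcription factors behind many inflammatory genes.

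FXYD2, a subunit that tunes the sodium pump and is made along much of the renal tubule, weighed most in the choice. It supplied 58.9% of the members' gate UMIs in VC and 63.8% in TNFα, against 12.1% and 10.3% for AMN. Without FXYD2, 260 VC members (34.9%) and 208 TNFα members (23.1%) would still have entered. The other 486 (65.1%) and 691 (76.9%) passed only with it, and FXYD2 was the only gate gene seen in 61 and 112 members. These 2 subsets are named below as FXYD2-independent and FXYD2-dependent cells. In members, AMN stood at 216 counts per 1000000 UMIs (CPM) in VC and 168 CPM in TNFα, HPN at 243 and 229, PDZK1 at 159 and 109, CUBN at 116 and 83.4, and FXYD2 at 1053 and 1039. These values follow from the rule and are given as a description. Just inside the limit, at 8 to 9 gate UMIs per 10000, stood 53 VC and 70 TNFα members, and just outside, at 7 to 8, stood 64 and 71 cells that met the other conditions. The podocyte limit removed 45 VC and 24 TNFα cells.

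The libraries differed in depth, and the gate reads depth. VC members had a median of 9738.5 UMIs and TNFα members 3682, against 6199 and 2559 in the other cells. The TNFα library held no barcode under 1514 UMIs, while the lowest VC cell had 613. With the limit of 3 gate UMIs, 26.6% of TNFα members sat exactly at the limit and 5.50% of VC members. After thinning to 1500 UMIs, which left out the shallower VC cells and no TNFα cell, the members were 373 of 10953 VC cells, or 3.41% (3.07 to 3.76), and 414 of 23160 TNFα cells, or 1.79% (1.62 to 1.97). Leaving FXYD2 out of the gate gave 2.18% and 0.898%. The share was thus lower in TNFα at equal depth too, but with 1 library each the treatment cannot be told apart from differences between wells. In a clustering of both libraries the order turned on 1 cluster. Of 26 clusters, 4 held at least 25% members, and these took in 10.96% of VC cells (10.4 to 11.5) and 11.1% of TNFα cells (10.7 to 11.5), with 91.3% and 85.2% of the members. The one nearest that limit, with 25.7% members, held 24 VC and 1390 TNFα cells, 11 and 352 of them members. Without it the shares were 10.8% (10.2 to 11.3) and 5.09% (4.81 to 5.38). Of 74 barcodes found in both libraries, 4 were members in either and 0 in both. Scrublet, a doublet caller, scored 16 VC members (2.14%) and 16 TNFα members (1.78%) above 0.2, against 2.89% and 3.67% of the other cells. That limit is close to the one the tool set itself in VC, while its own limit in TNFα called 0 cells, so the TNFα shares rest on a limit set by hand.

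Outside the gate genes, members carried markers of tubular epithelium, and the proximal markers were highest in FXYD2-independent cells. Over 15 proximal tubule markers that the rule did not use, the summed level in VC was 672 CPM in members and 58.2 CPM in all other cells, and 347 and 70.0 CPM in TNFα. Within VC members it was 1188 CPM in FXYD2-independent and 314 CPM in FXYD2-dependent cells. The order turned for 20 markers of the loop of Henle, distal tubule and collecting duct, at 498 CPM in FXYD2-independent and 1458 CPM in FXYD2-dependent cells. WFDC2, a secreted protein of distal and collecting duct cells, led that list at 169 CPM against 811 CPM, and MAL, a membrane-trafficking protein of distal tubule cells, followed at 125 against 371 CPM. The segment-defining genes UMOD, SLC12A3 and AQP2 had 0 UMIs in members. In TNFα the distal list read 662 and 933 CPM in these subsets and the proximal markers 593 and 271 CPM, so both gaps were narrower there. FXYD2-dependent cells are therefore described as tubular rather than as proximal.

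**Figure D1:**
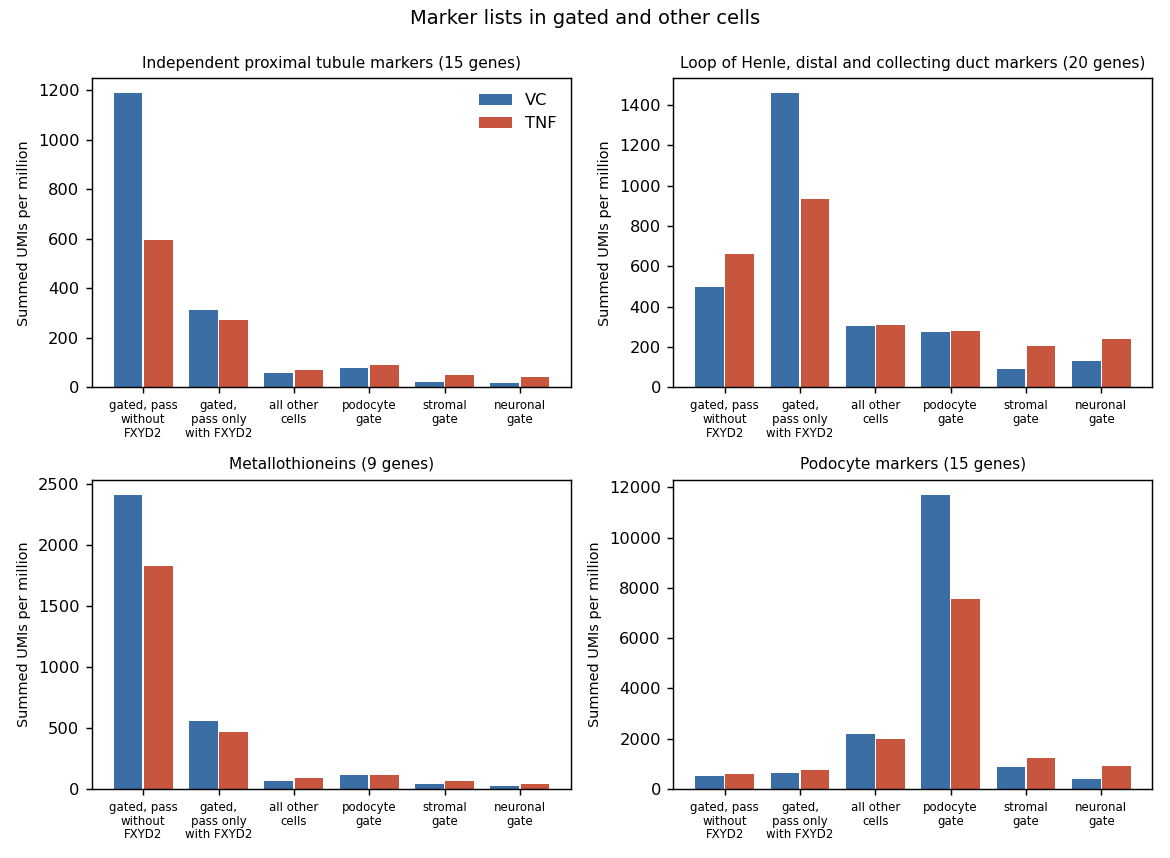
Summed CPM (vertical axis, from 0) of 4 marker lists in 6 groups of cells, with VC in blue and TNFα in red, 1 library each and no error bars. The proximal markers stand at 1188 CPM in VC FXYD2-independent cells and 58.2 in all other cells, the distal markers peak at 1458 in FXYD2-dependent cells, and the podocyte markers stay at 517 to 740 in both subsets.

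Among 2775 genes with at least 50 CPM in the members of both libraries, 162 (5.84%) were at least 2-fold higher in members than in other cells of both libraries, on the log2 scale after adding 10 CPM. Over all 36594 genes outside the gate, 319 (0.872%) did so. The cells were chosen from these same counts, so no test applies. Of 166 proximal tubule genes in 6 lists, 40 were at least 2-fold higher in both libraries and 2 lower, with medians of 0.44 in VC and 0.28 in TNFα on the log2 scale, beside medians of -0.0016 and -8.5e-08 over all 36594 genes, likewise with no limit on UMIs. With at least 50 CPM, it was 20 of 32.

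Of 13 transcription factors, 5 were at least 2-fold higher in members of both libraries. HNF4A, a nuclear receptor of proximal cells, stood at 38.8 CPM in VC members and 29.3 CPM in TNFα members, against 1.74 and 2.99 CPM in other cells. It had 54.6 CPM in FXYD2-independent and 27.8 CPM in FXYD2-dependent VC cells, both above its level in other cells. PAX8, which marks nephron epithelium as a whole, had 219 CPM in VC members and 61.7 CPM in other cells, and 197 and 235 CPM in the subsets.

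Of 11 endocytosis partners, 2 were at least 2-fold higher in members of both libraries. LRP2 (megalin) stood at 94.3 CPM in VC members and 10.7 CPM in other cells, and at 69.8 and 28.5 CPM in TNFα. Its adaptor DAB2 stood at 192 and 32.3 CPM in VC and at 120.2 and 29.3 CPM in TNFα. Among 49 solute carriers, 8 were at least 2-fold higher in members of both libraries. SLC34A1, the sodium-phosphate cotransporter of the brush border, had 73.1 CPM in VC members and 1.21 CPM in other cells, and 159 CPM in the FXYD2-independent subset. SLC3A1, the heavy chain of the cystine transporter, had 49.1 and 1.82 CPM, and SLC39A5, a zinc carrier, had 71.9 and 3.08 CPM. SLC37A4, which carries glucose 6-phosphate into the endoplasmic reticulum, was the most abundant carrier at 151 CPM, against 35.9 CPM. Carriers and channels of the mature tubule were scarce. SLC22A6, the organic anion transporter, had 14 UMIs in VC and 1 in TNFα members, SLC5A2, the glucose transporter of the first segment, had 12 and 5, the water channel AQP1 had 16 and 6, and the glucose transporter SLC5A1 had 0.

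The brush border list showed 7 of 26 genes at least 2-fold higher and 1 lower. The peptidases DPP4 and DPEP1 stood at 129 and 88.3 CPM in VC members, against 10.8 and 8.15 CPM in other cells, the microvillus bundler VIL1 at 69.6 against 2.89 CPM, and the protocadherin CDHR5 at 47.9 against 2.01 CPM. ENPEP, aminopeptidase A, was the exception at 15.9 CPM in members and 67.4 CPM in other cells, and it stood at 424 CPM in cells of the podocyte gate. MEP1A, MEP1B and MYO1A had 0 UMIs in members.

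Metabolic enzymes and secreted proteins summed to more in FXYD2-independent than in FXYD2-dependent VC cells, at 2386 against 1231 CPM and 3456 against 821 CPM. Of 41 metabolic genes, 12 were at least 2-fold higher in both libraries. HGD of tyrosine breakdown had 92.4 CPM in VC members and 4.61 CPM in other cells, GLYATL1, a glycine acyltransferase, had 112 and 4.49 CPM, and GATM, the first enzyme of creatine synthesis, had 62.2 and 8.14 CPM. QPRT of NAD synthesis had the most UMIs of this list but barely separated members (683 CPM) from other cells (469.7 CPM). Of 26 secreted and lipid carrier genes, 6 were at least 2-fold higher in both libraries and 1 lower. APOE, a lipid carrier, stood at 1212 CPM in VC members and 140.1 CPM in other cells, with 2110 CPM in FXYD2-independent and 587 CPM in FXYD2-dependent cells. APOA1, the main protein of high-density lipoprotein, stood at 188 and 17.0 CPM, with 392 and 46.2 CPM in the subsets. ALB had 7 UMIs in VC members and 0 in TNFα members, TTR had 1 and 1, and APOA4, APOH, FGG and ITIH2 had 0. The enzyme genes G6PC and GSTA2 were also at 0. A count of 0 allows up to 0.256 CPM in VC and 0.458 CPM in TNFα members (3 UMIs of the total).

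The 20 genes that stood highest in members over other cells, by the lower of the 2 libraries, were led by MT1G, and 4 of them were metallothioneins, small proteins that bind zinc and copper. MT1G had 452 CPM in VC members (439.9 to 464) and 5.87 CPM in other cells, and 207 CPM (196 to 218) and 13.3 CPM in TNFα. MT1E, MT1F and MT1H had 141, 152 and 206 CPM in VC members. Over the 9 genes of the family, the summed level was 1318 CPM in VC members and 67.5 CPM in other cells, and 788 and 87.1 CPM in TNFα. In the subsets of VC it was 2409 and 558 CPM. These genes are near-identical copies, so how UMIs were split among them is uncertain, which also holds for the lectins CLEC18A, CLEC18B and CLEC18C on the same list (140.2, 395 and 174 CPM in VC members, 11.4, 32.3 and 12.6 CPM in other cells). CLU, the chaperone clusterin, had 462 CPM in VC and 499 CPM in TNFα members, against 56.5 and 68.4 CPM. AFP, alpha-fetoprotein, known from fetal liver and yolk sac, had 192 CPM in VC members and 80.6 CPM in TNFα members, against 3.72 and 5.43 CPM, and 394 CPM in the FXYD2-independent VC cells. CYS1, a protein of the primary cilium, had 249 CPM against 22.3 CPM, and LGALS2, a galectin, 135 CPM against 8.65 CPM. The remainder were C1QTNF3, SMIM24, TMEM176A, TMEM176B, CCDC198, the noncoding RNAs LINC01320, LINC01781 and LINC02532, and a gene not reported here, at 125 to 323 CPM in VC members.

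**Figure D2:**
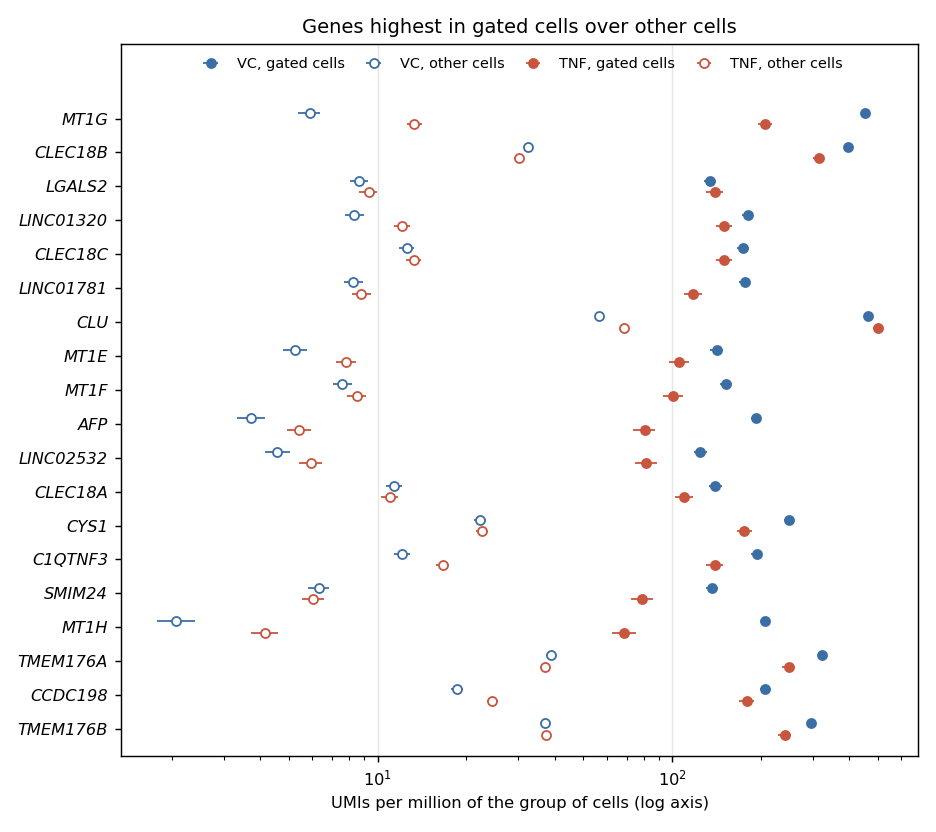
CPM (log axis) of 19 of the 20 genes highest in members over other cells; filled circles are members, open circles all other cells, blue VC and red TNFα, with exact 95% Poisson intervals as bars. In every row the 2 member points lie to the right of the 2 other-cell points, from MT1G (452 and 207 against 5.87 and 13.3) to TMEM176B (296 and 241 against 37.1 and 37.3).

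Epithelial genes were shared with other nephron cells, and markers of other lineages were low. EPCAM, the epithelial adhesion molecule, stood at 378 CPM in VC members and 57.1 CPM in other cells. Of 15 early nephron and progenitor markers, 1 was at least 2-fold higher in members of both libraries and 1 lower. They summed to 788 CPM in VC members and 707 CPM in other cells. Among them, the Notch ligand JAG1 stood at 212 and 42.1 CPM. Podocyte markers summed to 588 CPM in VC members, against 11701 CPM in cells gated by PTPRO and NPHS1, and BCAM, which tubules also make, supplied 292 CPM of it. Stromal markers summed to 463 CPM, against 7634 CPM in cells gated by the collagen and matrix genes COL3A1, DCN and LUM. Of 12 neuronal markers, NEFL had 242 CPM in members, close to the 224 CPM of all other cells, while STMN2 had 41.4 CPM against 514 CPM. The leukocyte genes PTPRC and CD3E had 0 UMIs and PECAM1 of endothelium 1 UMI. Proliferation genes were lower in members, with the kinetochore gene CENPF at 80.5 CPM against 334 CPM and MKI67 at 28.1 against 119.8 CPM. Nuclear genes of oxidative phosphorylation summed to 11885 CPM in VC members and 8936 CPM in other cells, with 0 of 27 past 2-fold. Genes known to respond to tissue dissociation were 1934 CPM in members and 2451 CPM in other cells.

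After 24 h of TNFα, NFKBIA, ANO9, STAP2 and LTB were among the genes higher in members, and SLC34A1, APOA1 and MT1G among those lower. Of 13169 genes with at least 50 UMIs over the members of both libraries, 52 (0.395%) were at least 2-fold higher in TNFα and 14 (0.106%) at least 2-fold lower, after adding 10 CPM. In all other cells, 74 of 18636 genes (0.397%) were higher and 12 (0.0644%) lower. The counts move with the added value: with 1 CPM they were 193 and 85, and with 50 CPM 9 and 2. They are counts between 2 libraries and carry no p-value.

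The largest increases were led by CCL2, the chemokine that draws monocytes, from 4.96 CPM in VC members to 253 CPM in TNFα members (ratio 51.0, 39.3 to 67.5). IL32, a cytokine, went from 31.8 to 352 CPM (ratio 11.1, 9.93 to 12.4), and VCAM1, an adhesion molecule, from 5.81 to 67.9 CPM (11.7, 9.04 to 15.3). FDCSP and UBD, a secreted peptide and a ubiquitin-like modifier, had 1 and 4 UMIs in VC members and 434 and 285 in TNFα members, so that their ratios had wide intervals (138 to 3.07e+04 and 49.2 to 470.4). All 5 were higher still in the other cells of the TNFα library, at 1311, 583, 273, 251 and 69.1 CPM.

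Droplets can also catch free RNA shed by other cells, and its part in these levels was not tested. Cells gated by the neuronal genes STMN2, DCX and ELAVL4 were set beside the members for this reason. In the TNFα library their CCL2 level was 517 CPM, above the 253 CPM of members. After thinning, 41.6% of members (38.4 to 44.9) and 47.6% of neuronal-gate cells (44.9 to 50.4) held a CCL2 UMI, and 64.7% and 59.8% before thinning, at median depths of 3682 and 2940.5 UMIs. At equal depth the CCL2 share of members was thus below that of the neuronal gate, with intervals that meet near 44.9%, and before thinning it was above. Whether members express CCL2 themselves was not tested. FDCSP and VCAM1 were also above the member level in the neuronal gate of that library (119.6 and 114 CPM against 66.3 and 67.9 CPM), and stood there at 0 and 3.49 CPM in VC. OPTN, an autophagy receptor of the NF-κB pathway, went from 11.7 to 72.1 CPM in members (ratio 6.16) and was high in the neuronal gate of both libraries, at 85.3 and 107 CPM. How far neuronal cells respond to TNFα themselves was not tested.

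For the other 8 of the 12 largest increases, members stood above the neuronal gate. ANO9, a membrane scramblase, went from 9.48 to 75.7 CPM (ratio 7.98, 6.49 to 9.90), against 14.1 CPM in the neuronal gate and 35.8 CPM in all other TNFα cells. LTB, lymphotoxin beta, went from 5.30 to 45.3 CPM (8.56, 6.49 to 11.4), against 6.59 CPM in the neuronal gate. STAP2, a signalling adaptor, went from 16.8 to 85.3 CPM (5.07, 4.30 to 5.99), against 22.2 CPM. After thinning, 9.23% of TNFα members held an ANO9 UMI and 2.54% of neuronal-gate cells, and for STAP2 it was 9.23% and 4.23%. NFKBIA, which encodes the NF-κB inhibitor IκBα, went from 65.0 to 334 CPM (5.14, 4.73 to 5.58), against 207 CPM in the neuronal gate. Its thinned share was 41.5% in members and 28.5% in the neuronal gate. IL4I1, an amino acid oxidase, and KREMEN2, a Wnt co-receptor, went from 1.71 to 42.4 CPM and from 20.3 to 95.9 CPM, against 12.2 and 43.7 CPM in the neuronal gate. In FXYD2-independent members, ANO9 went from 12.7 to 98.7 CPM and STAP2 from 16.4 to 102 CPM.

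**Figure D3:**
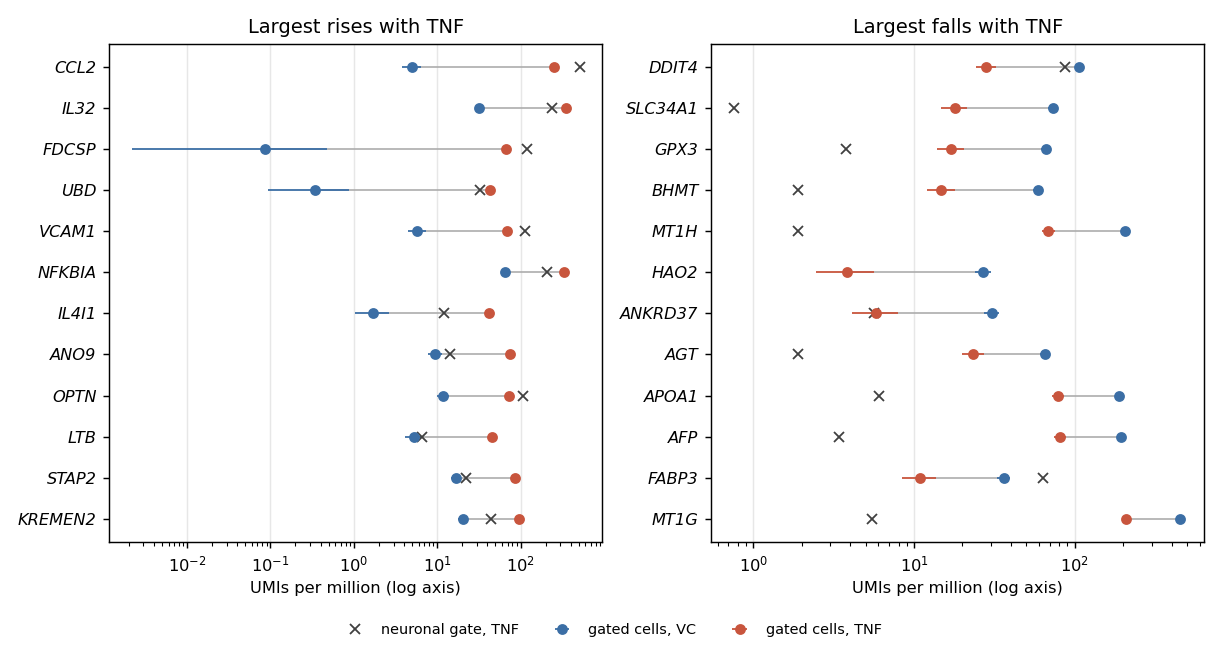
CPM (log axis) of the 12 largest increases and 12 largest decreases between VC members (blue) and TNFα members (red), with exact 95% Poisson intervals, and the neuronal gate of the TNFα library as crosses. CCL2, FDCSP, VCAM1 and OPTN have their cross to the right of the red point. Among the decreases, so do DDIT4 (28.1 against 87.2) and FABP3 (10.8 against 63.7). LTB (45.3 against 6.59), SLC34A1 (73.1, then 17.9) and MT1G (452, then 207) lie well above theirs.

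Over the lists, 12 of 37 NF-κB target genes with enough UMIs were at least 2-fold higher in TNFα members and 0 lower, with a median of 0.67 on the log2 scale beside 0.01 over all 13169 genes. In other cells the same 37 genes had a median of 1.07, and 19 were at least 2-fold higher. NFKB2 and RELB, subunits of NF-κB, went from 9.06 to 33.1 CPM and from 4.19 to 37.9 CPM in members. CXCL10, which attracts T cells, had 3 UMIs in VC and 131 in TNFα members, while it went from 1.53 to 84.2 CPM in other cells. The neuronal gate of the TNFα library held 30.9 CPM of it, above the members, with thinned shares of 5.46% in the neuronal gate and 5.23% in members. SDC4, a syndecan, was the contrary case: it was level in members (72.8 and 71.1 CPM) and went from 16.7 to 53.1 CPM in other cells. Of 28 interferon and antigen presentation genes, 4 were at least 2-fold higher. HLA-B went from 6.58 to 47.5 CPM and TAPBP, the peptide-loading chaperone tapasin, from 35.5 to 83.7 CPM. ISG15 and MX1, standard interferon targets, had 22.2 and 2.39 CPM in VC and 24.6 and 2.60 CPM in TNFα members.

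Receptor transcripts were few. TNFRSF1A had 394 UMIs in VC and 214 in TNFα members, or 33.7 and 32.7 CPM (ratio 0.971, 0.818 to 1.15), below the 49.4 and 54.5 CPM of other cells and above the 12.9 and 25.2 CPM of the neuronal gate. After thinning, 4.08% of VC members (2.77 to 5.78) and 5.78% of TNFα members (4.35 to 7.52) held a UMI of it, against 2.23% (1.53 to 3.13) and 3.77% (2.80 to 4.95) in the neuronal gate, intervals that overlap in both libraries. Before thinning the shares were 32.8% and 18.9% in members and 8.51% and 8.92% in the neuronal gate, at median depths of 9738.5 and 3682 and of 6126.5 and 2940.5 UMIs. TNFRSF1B had 0 UMIs in VC and 3 in TNFα members. Of 21 genes of the receptor complex, 0 passed 2-fold in either direction. Of 10 complement genes, 0 passed, and C3 went from 23 to 64 UMIs (1.97 to 9.77 CPM). Of 26 tubule injury genes, 2 were at least 2-fold higher in TNFα members and 0 lower. Above their VC level lay 15, and below it 11. HAVCR1 (kidney injury molecule 1) had 10 UMIs in VC and 3 in TNFα members, LCN2 had 0, and SPP1 (osteopontin) stood at 464 and 349.9 CPM. SOX9, a repair factor, stood at 24.3 and 27.2 CPM in members and at 13.1 and 31.2 CPM in other cells.

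The promoters of these genes in the RefSeq table of GRCh38.p14 (250 bases before to 50 after each start) were searched for the 10-base NF-κB consensus, on both strands and with no mismatch. A match is a run of letters, not a measured site. It was found for 7.09% of all genes in the table. Of the 12 largest increases, 8 are in the table and 7 of these held it, as did 28 of 40 matched NF-κB list genes. Of 10 matched genes among the 12 largest decreases, 0 held it, and of 127 proximal tubule genes 7 did. The 7 windows are shown to set the matches side by side, with the match in capitals, written on the strand of the gene and read on either strand.
VCAM1, chr1:100719670-100719699, plus strand: tccccttgaaGGGATTTCCCtccgcctctg
UBD, chr6:29559766-29559795, minus strand: aatccaggcaGGGGATTTCCaactcaactc
NFKBIA, chr14:35404811-35404840, minus strand: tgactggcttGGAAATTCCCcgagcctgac
IL32, chr16:3065295-3065324, plus strand: ctgtactcagGGAGTTTCCCcagccagctg
LTB, chr6:31582492-31582521, minus strand: aggggtgtgcGGAAAGTCCCagccaggtgt
OPTN, chr10:13100061-13100090, plus strand: gcggggcccgGGAAATTCCCcggcgcgggc
STAP2, chr19:4338828-4338857, minus strand: acgggctgacacaGGAAACTCCCctgaaac

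Among the 12 largest decreases, most genes belonged to the proximal program. SLC34A1 (chr5:177379235-177398848, plus strand, GRCh38) went from 73.1 CPM in VC members to 17.9 CPM in TNFα members (ratio 0.245, 0.1998 to 0.297). It was also lower within FXYD2-independent cells, at 159 and 47.4 CPM, which made up a smaller share of the TNFα members. HAO2, a peroxisomal oxidase, went from 26.9 to 3.82 CPM, BHMT of methionine metabolism from 59.1 to 14.8 CPM, and GPX3, the secreted glutathione peroxidase made by proximal tubules, from 66.5 to 16.9 CPM. APOA1 went from 188 to 78.3 CPM (0.416, 0.378 to 0.459) and angiotensinogen (AGT), the precursor of angiotensin, from 64.9 to 23.4 CPM. AFP went from 192 to 80.6 CPM. In FXYD2-dependent cells, the larger subset, APOA1 had 46.2 CPM in VC and 50.3 CPM in TNFα and AFP 52.2 and 48.9 CPM, while in FXYD2-independent cells they went from 392 to 169 CPM and from 394 to 184 CPM. FABP3, a fatty acid binding protein, went from 36.1 to 10.8 CPM. It stood higher in the neuronal gate, at 81.0 CPM in VC and 63.7 CPM in TNFα. MT1G (chr16:56666730-56668065, minus strand, GRCh38) and MT1H went from 452 to 207 CPM and from 206 to 68.5 CPM. Within FXYD2-independent cells MT1G went from 865 to 547 CPM and MT1H from 377 to 179 CPM. Within FXYD2-dependent cells MT1G went from 164 to 102 CPM and MT1H from 87.2 to 34.5 CPM. DDIT4 and ANKRD37, which are known to be induced by low oxygen, went from 107 to 28.1 CPM and from 30.4 to 5.80 CPM, and were also lower in other TNFα cells (159 to 78.0 CPM and 13.8 to 3.70 CPM).

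Over the 108 proximal tubule genes with enough UMIs, 8 were at least 2-fold lower in TNFα members, 1 was higher, and 91 lay below their VC level, as did 6122 of all 13169 genes. Summed over all 166 genes of the lists, FXYD2-independent cells went from 10563 CPM in VC to 7310 CPM in TNFα. FXYD2-dependent cells, the larger subset, went from 5074 to 4849 CPM. The median of the 108 genes was -0.35 on the log2 scale, beside -0.01 for the same genes in other cells. In other VC cells, genes such as SLC34A1 (1.21 CPM) and HAO2 (0.439 CPM) lay far under the 10 CPM added. This holds their log2 ratio near 0, so the 2 medians are not on equal terms. For the 13 transcription factors the median was -0.31, with 11 below their VC level and 2 above. HNF4A had 38.8 and 29.3 CPM (ratio 0.756, 0.635 to 0.897), with a log2 ratio of -0.31 that turned to 0.14 after thinning. PAX8 had 219 and 193 CPM (0.881, 0.823 to 0.943). LRP2 went from 94.3 to 69.8 CPM (0.740, 0.662 to 0.826). SERPINA1, the protease inhibitor alpha-1 antitrypsin, was the 1 higher gene, from 35.1 to 108 CPM (3.07, 2.71 to 3.47). Its thinned share was 2.72% of VC and 9.01% of TNFα members, against 0.462% of the TNFα neuronal gate. CLU had a ratio of 1.08 (1.03 to 1.13) and LGALS2 one of 1.04 (0.955 to 1.13).

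Markers of other cell types moved in members at the same time. COL1A1, the most abundant stromal marker in members, went from 87.9 to 171 CPM, and its thinned share from 16.3% to 36.2%. In the neuronal gate it went from 80.5 to 335 CPM and from 9.74% to 41.2%. The 14 stromal markers summed to 463 CPM in VC and 783 CPM in TNFα members, and the 15 podocyte markers to 588 and 703 CPM. None of the stromal and podocyte markers was at 0 in members. Their part in the lower proximal levels was not tested. With only members of at least 4000 UMIs, 8 of 107 proximal tubule genes were at least 2-fold lower, and after thinning 8 of the 45 that still had enough UMIs.

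**Figure D4:**
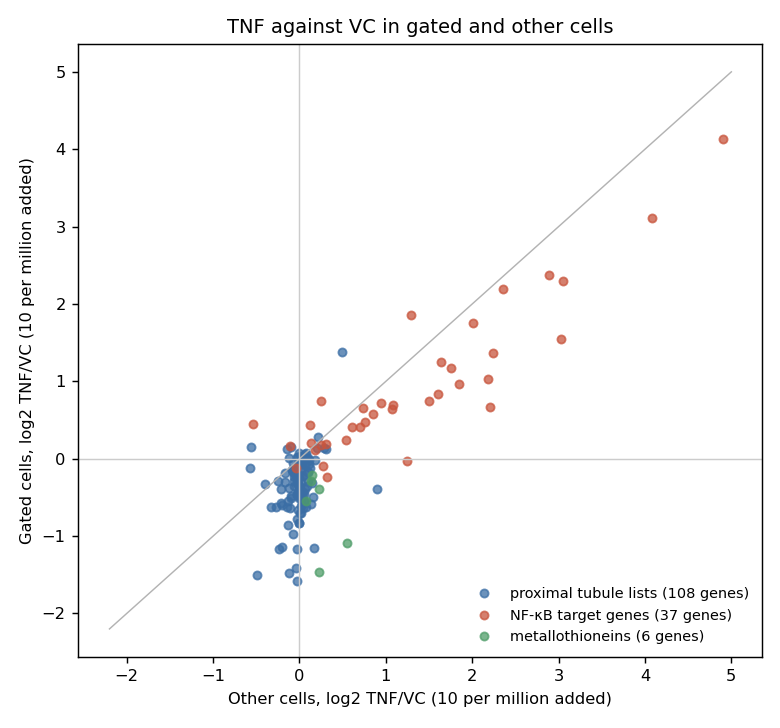
Log2 ratio of TNFα to VC after adding 10 CPM, in all other cells (horizontal) and in members (vertical), for proximal tubule genes (blue), NF-κB target genes (red) and metallothioneins (green), with the line of equal change. Most blue points lie under 0 on the vertical axis while centred at 0 on the horizontal axis (medians -0.35 and -0.01), and most red points lie to the right of 0 but below the line (medians 1.07 and 0.67). On the horizontal axis, the 10 CPM added holds genes that are low in other cells near 0.

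In the 4 bulk libraries of the TNFα set, which sum over all cells of the spheroids, more proximal tubule genes fell than rose. A bulk level cannot tell fewer cells of a type from less RNA per cell. Values are the deposited levels, log2(CPM + 1), and with limma (treatment and time as terms, Benjamini-Hochberg adjustment) 1776 of 21093 genes rose (8.42%) and 2285 fell (10.8%) at an adjusted p under 0.05. Each time had 1 library per arm, so the 24 h and 48 h libraries stood in for replicates. The SE and p-values of this set therefore do not measure spread between replicates of the treatment. SLC34A1 read 7.89 with VC and 5.35 with TNFα at 24 h, and 7.93 and 5.26 at 48 h, so that it fell by 2.60 (SE 0.06, limma adjusted p = 1.3e-14). APOA1 read 5.84, 3.89, 6.05 and 3.64 in the same order and fell by 2.17 (SE 0.10, adjusted p = 2.7e-11). In both genes the TNFα libraries lay far below the VC libraries at each time. HNF4A read 6.27, 5.02, 6.604 and 5.65 and fell by 1.10 (SE 0.08, adjusted p = 1.0e-08), but lost its call without the 48 h VC library. LRP2 read 7.61, 7.26, 7.42 and 7.26, a change of -0.25 (SE 0.06, adjusted p = 0.0094) that 7 of 11 alternatives did not call.

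Of 139 proximal tubule genes in that table, 96 fell and 9 rose, with a median of -0.56 beside -0.03 over all genes. Of the 12 genes with the largest decreases in members, 9 fell, with DDIT4 (0.20, adjusted p = 0.051), ANKRD37 (-0.14, adjusted p = 0.51) and FABP3 (-0.23, adjusted p = 0.15) outside the call. Of the 20 genes highest in members, 18 fell, the exceptions being CLU and CCDC198. Metallothioneins fell in 6 of 7 cases, MT1G by 0.96 (SE 0.11, adjusted p = 6.0e-06). SERPINA1 rose by 0.55 (SE 0.07, adjusted p = 1.1e-05). All 11 listed genes among the 12 largest increases rose, CCL2 by 4.07 (SE 0.09, adjusted p = 4.4e-15), as did 38 of 44 NF-κB target genes. Of 28 tubule injury genes, 15 rose and 5 fell. Podocyte markers fell as well, in 13 of 15 cases, and stromal markers fell in 3 and rose in 4 of 14 cases, so the fall was not particular to proximal genes. The counts rest on few libraries: with any 1 of the 4 left out, only treatment was fitted and the lone library of an arm was taken to vary like the other arm, and 342 to 402 genes rose, 296 to 358 fell, and 54 to 60 proximal tubule genes fell.

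Without treatment, more proximal tubule genes fell than rose from D21 to D29. Over the 6 libraries, with 1 mean per day, limma called 2778 of 27650 genes higher (10.0%) and 2303 lower (8.33%), or 2408 and 4667 when each library was centred on its median gene. Of 142 proximal tubule genes, 57 fell and 4 rose, with a median of -0.34 beside -0.02 over all genes. The D21 libraries read 6.94 and 6.90 for HNF4A, the D25 libraries 6.21 and 6.29, and the D29 libraries 5.15 and 5.13, a fall by 1.78 (SE 0.07, limma adjusted p = 3.4e-05). LRP2 read 8.78 and 8.63, then 8.27 and 8.23, then 7.48 and 7.01, and fell by 1.46 (SE 0.14, adjusted p = 4.4e-04). The days did not overlap in either gene. For SLC34A1 the D21 libraries read 7.14 and 6.48, the D25 libraries 7.44 and 7.42, and the D29 libraries 4.99 and 5.04, so that it was highest on D25 and fell by 1.80 from D21 to D29 (SE 0.18, adjusted p = 5.3e-04). Metallothioneins went the other way, with 5 of 7 higher: MT1G read 3.34 and 1.77 on D21 and 5.64 and 4.56 on D29, a rise by 2.54 (SE 0.50, adjusted p = 0.011). In these libraries 11 of 14 stromal and 11 of 12 neuronal markers rose and 9 of 15 podocyte markers fell, and their part in the lower proximal levels was not tested. Leaving out 1 library moved the counts to 1398 to 2964 higher and 960 to 2453 lower, with 41 to 60 proximal tubule genes lower. The lowest pairs came without D21 replicate 2 (1398 and 960), D21 replicate 1 (1571 and 964) and D29 replicate 2 (1891 and 1443).

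**Figure D5:**
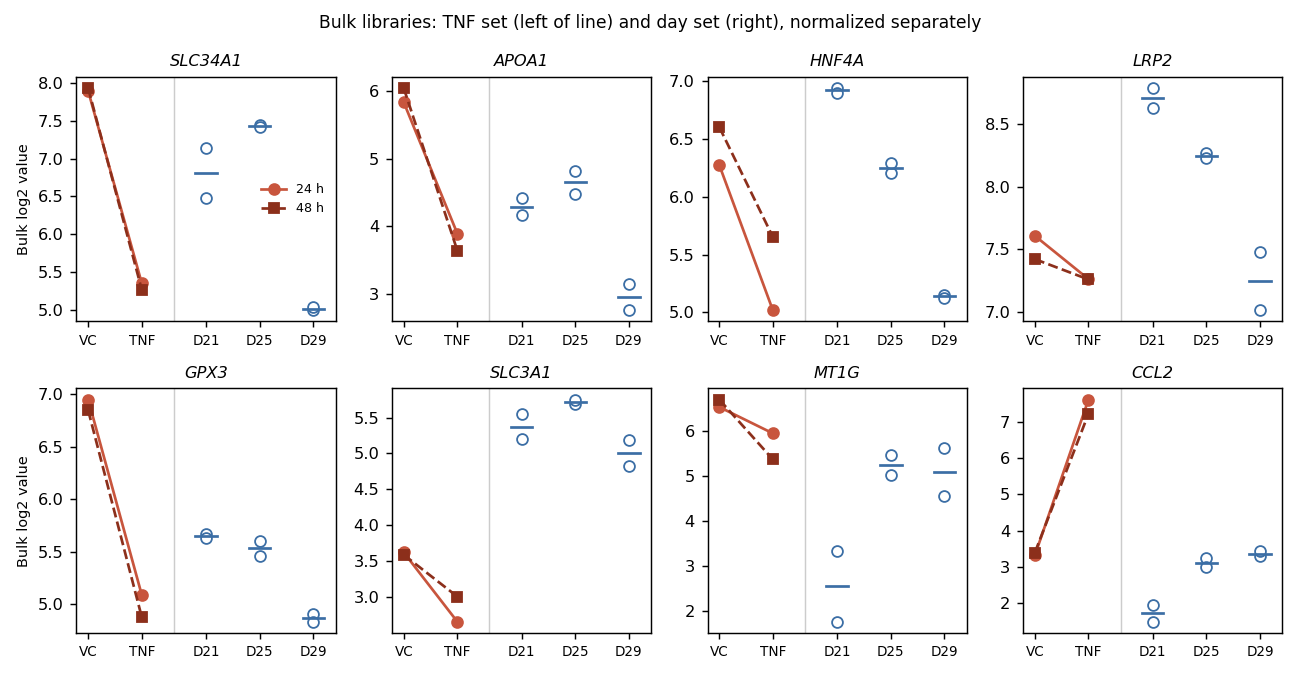
Bulk log2 levels of 8 genes, each point 1 library: VC and TNFα at 24 h (circles, solid line) and 48 h (squares, dashed line) left of the grey line, and D21, D25 and D29 with the mean of 2 libraries as a bar to its right; the sets were normalized separately. SLC34A1 goes from 7.89 to 5.35 and CCL2 from 3.32 to 7.62 with TNFα at 24 h, and HNF4A steps down from D21 through D25 to D29.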

How the data were processed

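The single-cell files hold UMI counts that the authors deposited as filtered matrices of 36601 genes. The file header names Cell Ranger 6.0.1 and the labels Cell Ranger 2.1.1. The labels name hg19 and hg38, and which build these matrices used was not settled. The bulk files hold log2 values deposited per gene, made by the authors from reads aligned with STAR 2.7.8a and counted with HTSeq (0.11 in the labels, another version in the study's methods). They are log2(CPM + 1), the CPM taken after adding 0.5 to each count, which damps the changes of low genes, and whole reads were recovered for 100% of values within 0.01 read, at 19073609 to 59246286 reads per library. Day sets were normalized separately, and only set 2 was used. An untreated day 25 single-cell library was not analysed here.

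Barcodes with over 500 genes were kept. The single-cell libraries held 100623461 (VC) and 91152175 (TNFα) UMIs, of which 11703874 and 6550121 were in members. UMIs were summed over groups of cells and scaled to 1000000, with exact Poisson intervals for levels, exact conditional intervals for ratios and Clopper-Pearson intervals for shares. Ratios on the log2 scale had 10 CPM added, which understates the change of low genes. Podocyte, stromal and neuronal gates used the same limits on their genes, and cells in more than 1 gate were left out of them. Bulk values were tested with limma 3.58.1 (eBayes with a trend), with edgeR 4.0.16 and DESeq2 1.42.0 on the recovered reads as alternatives. Software was Python 3.11.15, scanpy 1.11.5, scipy 1.17.1 and R 4.3.3. The tests were checked on simulated data. The Scrublet score limit of 0.2, equal weights per cell, the clustering (scanpy Leiden at resolution 1, 2000 variable genes, 30 components, 15 neighbours, no batch correction) and leaving out the deepest barcodes were chosen after seeing the data.

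The members and the 25 gene lists were chosen with earlier results of these data known. Named genes were the 20 highest in members over other cells (at least 50 CPM in both libraries), the 12 largest increases and decreases with TNFα (at least 50 UMIs), the 8 on each side whose change differed most from other cells, and list members by abundance, size of change or absence; a few list members were named for their role after their values were seen. Gate genes, mitochondrial, ribosomal and sex-linked genes were left out, and a few genes that the rules named are not reported here.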

Additional observations from a re-analysis of the deposited data

Results flagged for a closer look

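For 7 of the genes named by rule, the level with TNFα moved one way in members and the other way in other cells, with both ratio intervals clear of 1. None of these differences was tested, since each condition has 1 library, and values are log2 ratios of TNFα to VC after adding 10 CPM, members minus other cells.

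MT1G differed by -1.64: it was lower in members (452 to 207 CPM) and higher in other cells (5.87 to 13.3 CPM). Its log2 ratio was -1.09 over all members, but -0.65 within FXYD2-independent and -0.63 within FXYD2-dependent cells. FXYD2-independent cells, where it was highest, made up a smaller share of the TNFα members. C1QTNF3, a secreted adipokine, differed by -0.71, from 194 to 139.7 CPM in members and from 12.1 to 16.6 CPM in other cells. It went from 331 to 245 CPM in FXYD2-independent cells and from 98.1 to 107 CPM in FXYD2-dependent cells. The other 5 genes were higher in other cells than in members of the VC library. CAV1 (caveolin) differed by 1.34, from 3.59 to 16.9 CPM and from 15.7 to 10.1 CPM. ELAVL4, a neuronal RNA-binding protein, differed by 1.34, CRABP1, a retinoic acid binding protein, by 1.30, PMEL, a melanosome protein, by 1.22, and PTPRZ1, a phosphatase of glia, by 1.18. CRABP1 illustrates the levels: 72.3 to 94.5 CPM in members, 1003 to 512 CPM in other cells, and 4932 to 3239 CPM in the neuronal gate. The direction in members turned for CRABP1 and PTPRZ1 when only members of at least 4000 UMIs were kept, for CRABP1 also with at least 5 gate UMIs, and for ELAVL4 when FXYD2 was left out of the gate.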

How the results depend on the processing

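The share of members moved with the gate, with VC above TNFα under each alternative gate, while clusters rich in members gave 10.96% in VC and 11.1% in TNFα, or 10.8% and 5.09% without the cluster nearest their limit. In VC it was 5.66% with at least 5 gate UMIs, 7.79% at 5 and 4.49% at 12 per 10000, 4.96% with no UMI of PTPRO or NPHS1, 5.42% without HPN, 2.18% without FXYD2, 6.76% for cells with over 1000 genes and 3.41% after thinning. In TNFα it was 5.54% and 2.23% with at least 2 and 5 gate UMIs, 4.73% and 2.59% at 5 and 12 per 10000, 2.86% with no UMI of PTPRO or NPHS1, 3.48%, 3.07%, 3.49%, 3.63% and 0.898% without AMN, HPN, PDZK1, CUBN and FXYD2, and 1.79% after thinning. The causes were not tested. Genes at least 2-fold higher in members of both libraries numbered 87 with 50 CPM added, and 283 and 40 with limits of 20 and 200 CPM.

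Between TNFα and VC members, the gate without FXYD2 gave 27 lower genes and equal weights per cell 103 higher genes. Thinning gave 5 higher NF-κB target genes of the 8 that still had enough UMIs, beside 12 of 37 as reported. With 1 CPM added there were 193 higher and 85 lower genes, 22 higher NF-κB and 21 lower proximal tubule genes, and with 50 CPM 9, 2, 4 and 0. Single genes whose direction turned were HNF4A (0.14 after thinning), CRABP1 (-0.21 with 5 gate UMIs, -0.48 in members of at least 4000 UMIs), STMN2 (-0.13, -0.13, and -0.011 at 5 per 10000), PTPRZ1 (-0.00049 in members of at least 4000 UMIs), ELAVL4 (-0.082 without FXYD2) and SFRP2 (0.12 after thinning).

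In the bulk TNFα set, DESeq2 called 970 genes lower, and the fit of treatment without time called 637 higher and 673 lower, with 4 proximal tubule genes higher. Without 1 library the calls were 342 to 402 higher and 296 to 358 lower, 54 to 60 proximal tubule genes lower, 1 to 2 higher and 30 to 31 NF-κB genes higher, and the change ranged over 0 for DDIT4 (-0.38 to 0.77), ANKRD37 (-0.67 to 0.40), LINC01320 (-0.59 to 0.056) and CLU (-0.22 to 0.25). On D29 against D21, centring gave 4667 lower genes and -0.086 for CLU, and a fit with no trend 2 proximal tubule genes higher. Without 1 library the calls were 1398 to 2964 higher and 960 to 2453 lower, 41 to 60 proximal tubule genes lower, 1 to 5 higher and 12 to 23 NF-κB genes higher, and AFP (-0.88 to 0.079), FABP3 (-0.11 to 0.47), CLU (-0.041 to 0.065), TMEM176A (-0.30 to 0.21) and APOE (-0.22 to 0.093) turned. With the replicate block, 3149 genes were higher and 2907 lower. Deviations of same-numbered libraries correlated at 0.14, 0.08 and 0.27, so the numbers were not taken to pair the samples.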

Other observations

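CEBPD, a transcription factor of the acute phase response, stood further above other cells in VC members than in TNFα members. It had 330.0 CPM in VC members (319.6 to 341) and 66.6 CPM in other VC cells, and 276 CPM (263 to 289) and 219 CPM in TNFα, so that it was lower by a ratio of 0.836 in members and higher by 3.29 in other cells. The podocyte gate went from 73.7 to 433 CPM and the stromal gate from 75.9 to 249 CPM. In bulk it read 5.96 with VC and 7.16 with TNFα at 24 h, and 6.31 and 6.85 at 48 h, and rose by 0.87 (SE 0.10, limma adjusted p = 5.9e-06). SDC4 had a like pattern, and with VC both genes stood at higher levels in members than in the podocyte, stromal and neuronal gates.

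MMP7, a matrix protease known from injured tubules, sat in the FXYD2-dependent cells: 162 CPM there and 14.8 CPM in FXYD2-independent cells of VC, and 174 and 40.3 CPM in TNFα. In untreated bulk organoids the D21 libraries read 3.53 and 2.89, the D25 libraries 5.59 and 5.30, and the D29 libraries 7.19 and 7.84, a rise by 4.30 (SE 0.25, limma adjusted p = 9.4e-05). It also rose by 1.72 with TNFα in bulk (SE 0.06, adjusted p = 2.8e-12), while over all members it went from 102 to 143 CPM and in other cells from 61.2 to 39.1 CPM.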
